A study of Homo sapiens with 15 samples.

Results

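The question here was which genes changed differently between 4 h and 24 h of treatment depending on whether the cells received THZ1 or YKL-5-124. The quantity measured was the interaction of compound and time, (THZ1 24 h minus THZ1 4 h) minus (YKL-5-124 24 h minus YKL-5-124 4 h) on the log2 scale, for each gene. It compared 12 of the 15 RNA-seq libraries of the series. A gene was a member where edgeR's quasi-likelihood test of this contrast gave an adjusted p under 0.05, and 8331 of the 14461 genes tested were members. The cells were PATU-8988T, an established human pancreatic cancer line. The 4 treated groups were THZ1 at 100 nM for 4 h, THZ1 at 100 nM for 24 h, YKL-5-124 at 100 nM for 4 h and YKL-5-124 at 100 nM for 24 h, with 3 libraries each. The other 3 libraries came from cells given the solvent DMSO at 0.1%, with no time on their labels. They carry no weight in the contrast, but they entered the low-count filter, the scaling and the estimate of spread. Their levels are given here only as a background. With no DMSO library per time, time in culture and the action of a compound cannot be told apart within 1 compound's time course. Whether the 3 libraries of a group stem from 3 cultures is not on the labels. A p-value here therefore covers no more than library-to-library spread, which may be technical.

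CDK7 sits in TFIIH, a general transcription factor, as its kinase. It phosphorylates the C-terminal tail of RNA polymerase II (Pol II) as transcription starts, and with cyclin H and MAT1 it also forms the CDK-activating kinase that switches on the cell cycle kinases. THZ1 and YKL-5-124 both bind CDK7 covalently. YKL-5-124 joins the covalent side chain of THZ1 to a different, pyrrolopyrazole core, and it is known as the more selective of the pair, since THZ1 also reaches CDK12 and CDK13, the kinases of Pol II elongation.

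Each library held between 15567057 and 22869590 counts. The THZ1 24 h libraries stood apart from the other groups: cytosolic ribosomal protein genes took 20.8% to 23.1% of their counts, against 6.53% to 14.9% in the other 12 libraries. Genes of the mitochondrial genome took 3.46% to 4.44% there, against at most 2.08% elsewhere. The TMM factor, which scales each library so that the bulk of genes lines up, was 0.532 to 0.559 in THZ1 24 h and 0.970 to 1.38 in the other libraries. Levels below are CPM (each library's counts put on a common total) scaled by these factors, and how much of an interaction is read as higher or lower rests on that scaling. Every row of the counts is a gene, with no added RNA standard. A rise or fall below is therefore relative to the other genes. Under none of the scalings used here need a rise mean more mRNA per cell. Under library totals with no scaling factor, the median interaction of all genes tested fell from -0.15 to -1.18, and the shares called were 1558 genes higher and 7917 lower in place of 3842 and 4489. With upper-quartile factors they were 4706 higher and 3536 lower. Of the markers of a pancreatic epithelial line, KRT8 was at 791 to 3097 CPM and KRT18 at 238 to 538 CPM in all 15 libraries, while KRT19, the ductal keratin, stayed at or under 0.204 CPM and VIM, a mesenchymal filament, was at 141 to 303 CPM. The epithelial markers EPCAM and CDH1 were at 10.1 to 68.4 CPM and at 0.140 to 6.76 CPM. Of the markers of other cells, CD3D, CD68, PRSS1, CPA1, INS and GCG were at 0 in all 15 libraries. The rest reached 3.57 CPM (LYZ), 0.817 (VWF), 0.306 (PTPRC), 0.245 (PECAM1), 0.140 (DCN and LUM) and 0.118 (ALB) at most. Of the 135 genes chosen by the naming rule, all kept the sign of their interaction under RLE, upper-quartile and DESeq2 factors and library totals, except GTF2H5 and FANCD2 under library totals. Strand was not known for these counts, so a tested neighbour on top of a gene makes its value uncertain: this holds below for BCL2L1, POLR2E, POLR2I, POLR2B, CENPF, TP53BP1, GNL3, VLDLR, ATF5, HSP90AA1, HSPA8, SREBF2, TJP1, PSMD2, PSMD6, ZFAS1, SNHG6, RPLP2 and ETV5, besides those where it is stated.

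The interaction was higher (the change over time was more positive under THZ1) for 3842 genes, 26.6% of those tested, and lower for 4489, 31.0%. Each count of called genes in a list below is to be read beside these shares. In 3060 of the higher and 3548 of the lower genes the difference was at least 1 on the log2 scale. The quartiles of the interaction over all genes were -1.17 and 1.03, with a median standard error of 0.31. More genes moved over time under THZ1 than under YKL-5-124: between 4 h and 24 h, 4543 genes (31.4%) rose and 5166 (35.7%) fell under THZ1, whereas 1333 (9.22%) rose and 1716 (11.9%) fell under YKL-5-124. Of the genes with a higher interaction, 2642 rose under THZ1 with no call under YKL-5-124, 622 rose under THZ1 and fell under YKL-5-124, 212 rose under both, and 250 fell under YKL-5-124 with no call under THZ1. Of those with a lower interaction, 3363 fell under THZ1 with no call under YKL-5-124, 406 fell under THZ1 and rose under YKL-5-124, 357 fell under both, and 207 rose under YKL-5-124 with no call under THZ1. Across the 14461 genes the time changes of the compounds, which share no library, had a Spearman correlation of 0.0814, given as a description, since genes are not independent replicates. The genes nearest the threshold were ATP6V0C (adjusted p = 0.0499 by edgeR), just inside, and ANKRD18A (adjusted p = 0.050 by edgeR), just outside.

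**Figure D1:**
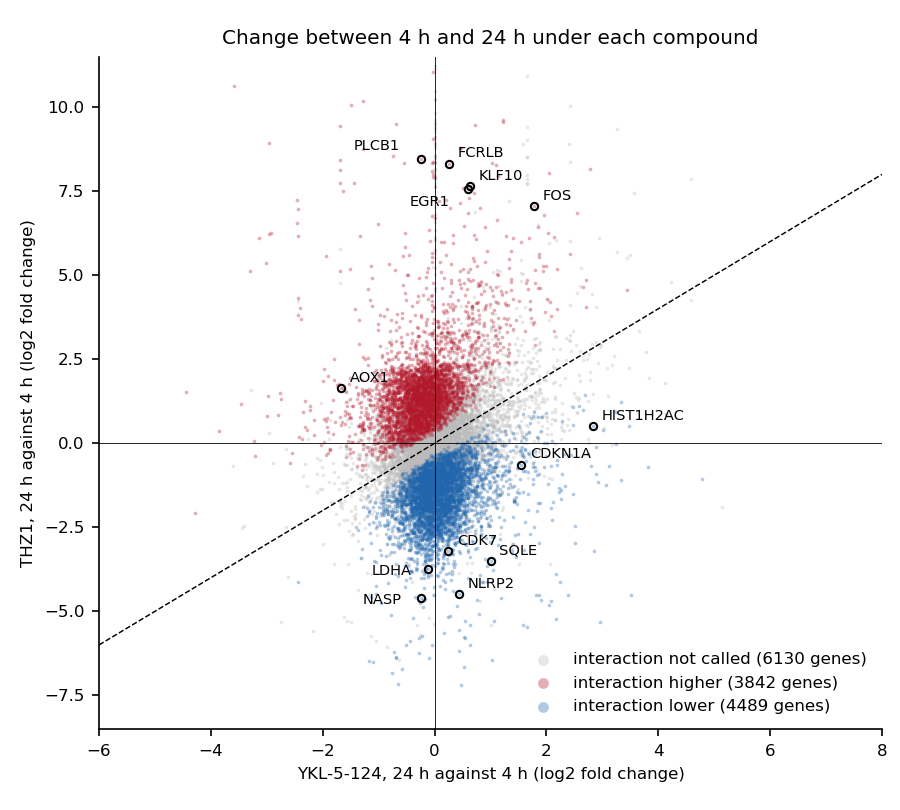
Log2 fold change between 4 h and 24 h under YKL-5-124 (x axis) and under THZ1 (y axis), 1 point per gene, coloured by the edgeR call of the interaction; the dashed line marks equal changes, and 3 genes lie outside the axes. The cloud is taller than it is wide: 9709 genes (67.1%) changed over time under THZ1 and 3049 (21.1%) under YKL-5-124.

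Seen across compounds at matched dose and time, THZ1 and YKL-5-124 differed in 4821 genes (33.3%) at 4 h (1649, 11.4%, higher and 3172, 21.9%, lower under THZ1) and in 10977 (75.9%) at 24 h (4601, 31.8%, higher and 6376, 44.1%, lower). At 4 h the differences of at least 1 on the log2 scale lay mostly on 1 side, with 61 genes higher and 2091 lower under THZ1. At 24 h the same counts were 3512 and 5159. The order of the compounds turned in some genes: 159 (1.10% of genes tested) were lower under THZ1 than under YKL-5-124 at 4 h and higher at 24 h, and 200 (1.38%) were higher at 4 h and lower at 24 h. The last count was not steady: it was 69 without YKL-5-124 4 h replicate 3, 80 without THZ1 4 h replicate 3, 126 without YKL-5-124 4 h replicate 2 and 605 with each library's slope on exonic length as a covariate. The 4 h and 24 h differences share no library, and their Spearman correlation across genes was 0.607.

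One list with a higher interaction was that of immediate-early and short-lived transcripts, whose genes are switched on within minutes of a stimulus and whose mRNAs decay fast. Of 39 tested, 29 were called higher and 3 lower (all genes: 26.6% and 31.0%), and their median interaction was 2.11, against -0.15 over all genes tested. Their median change between 4 h and 24 h was 2.97 under THZ1, where 34 rose and 1 fell, and 0.80 under YKL-5-124, where 26 rose and 0 fell. Of all genes tested, 31.4% rose and 35.7% fell under THZ1, and 9.22% rose and 11.9% fell under YKL-5-124. The median interaction of the list stayed above 0 under every scaling, at 1.07 with library totals.

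KLF10, a zinc-finger repressor induced early by TGF-beta, had the highest level of the group. KLF10 stood at 13.6, 8.54 and 9.59 CPM in the THZ1 4 h libraries, at 2559, 1923 and 1921 in THZ1 24 h, at 44.6, 37.2 and 36.0 in YKL-5-124 4 h, and at 70.8, 65.5 and 46.5 in YKL-5-124 24 h. Thus KLF10 was below every YKL-5-124 library at 4 h of THZ1 and far above all of them at 24 h; the DMSO mean was 57.1 ± 7.45 CPM (SD, n = 3). Its interaction was 7.02 ± 0.29 (SE), with a 95% interval of 6.40 to 7.64 and an adjusted p of 2.98e-10 by edgeR.

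EGR1, a transcription factor switched on by serum and growth factors, lies on chromosome 5 from 138465490 to 138469315 (GRCh38, plus strand). EGR1 was at 1.66, 2.86 and 1.72 CPM in THZ1 4 h, 194, 462 and 510 in THZ1 24 h, 1.01, 2.07 and 2.20 in YKL-5-124 4 h, and 3.39, 2.37 and 2.17 in YKL-5-124 24 h. Only the THZ1 24 h libraries were high, and the other groups overlapped one another. The interaction of EGR1 was 6.95 ± 0.56 (adjusted p = 7.56e-08 by edgeR), and at 4 h THZ1 minus YKL-5-124 was 0.24, with a 95% interval of -0.66 to 1.14.

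FOS, the partner of JUN in the AP-1 factor, moved under both compounds. It stood at 3.04, 3.18 and 1.91 CPM in THZ1 4 h, 397, 341 and 339 in THZ1 24 h, 2.71, 1.59 and 1.72 in YKL-5-124 4 h, and 9.45, 8.46 and 2.80 in YKL-5-124 24 h. It rose over time by 7.05 under THZ1 and by 1.78 under YKL-5-124 on the log2 scale, and the interaction was 5.27 ± 0.56 (adjusted p = 1.27e-06 by edgeR). EGR4, a relative of EGR1, was at 15.1, 15.1 and 18.2 CPM in THZ1 24 h and at no more than 0.126 CPM in any other library; its 3 THZ1 4 h libraries held 1 count in all, so no fold is given.

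The 3 members on the lower side included SRF and JUND. SRF, the serum response factor that itself drives many immediate-early genes, had a lower interaction: 97.4, 115 and 106 CPM in THZ1 4 h, 57.6, 55.5 and 61.9 in THZ1 24 h, 90.9, 117 and 128 in YKL-5-124 4 h, and 134, 139 and 143 in YKL-5-124 24 h. The groups overlapped at 4 h and were apart at 24 h, and the interaction was -1.17 ± 0.21 (adjusted p = 0.000235 by edgeR). JUND, an AP-1 member with a steadier mRNA, was at -0.79 ± 0.30 (adjusted p = 0.0335 by edgeR), a call that was lost with RLE factors (-0.56), with upper-quartile factors (-0.48) and with DESeq2 (-0.56), and without any of 6 libraries (-0.40 without THZ1 4 h replicate 1). The promoters of EGR1 and SRF are shown because both hold the same motif while their interactions went opposite ways. These are the 150 bases before the annotated start, from RefSeq (GRCh38.p14, plus strand, EGR1 at chr5:138465329-138465478 and SRF at chr6:43171119-43171268), with matches to the serum response element, the binding motif of SRF, in capitals.
EGR1: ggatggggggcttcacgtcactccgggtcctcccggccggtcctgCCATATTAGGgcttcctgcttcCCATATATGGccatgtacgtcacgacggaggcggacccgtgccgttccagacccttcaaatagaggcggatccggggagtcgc
SRF: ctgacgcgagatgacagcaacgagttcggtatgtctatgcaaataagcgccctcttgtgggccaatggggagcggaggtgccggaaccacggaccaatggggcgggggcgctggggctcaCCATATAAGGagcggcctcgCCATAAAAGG
The motif was searched on both strands in the 250 bases upstream of each start. It was found in 1.04% of the 10006 protein-coding genes tested that had a promoter in the table, and in 1.16% of all 35116 promoters there. Among genes with a higher interaction the share was 1.04%, and among those with a lower one 1.03%, close to the share over all genes tested. It was found in 3 of 144 genes with a higher interaction of 8-fold or more (2.08%) and in 1 of 224 with a lower one of that size (0.446%). Only 29 of the 39 immediate-early genes matched a promoter, too few for a share over that list to be read.

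**Figure D2:**
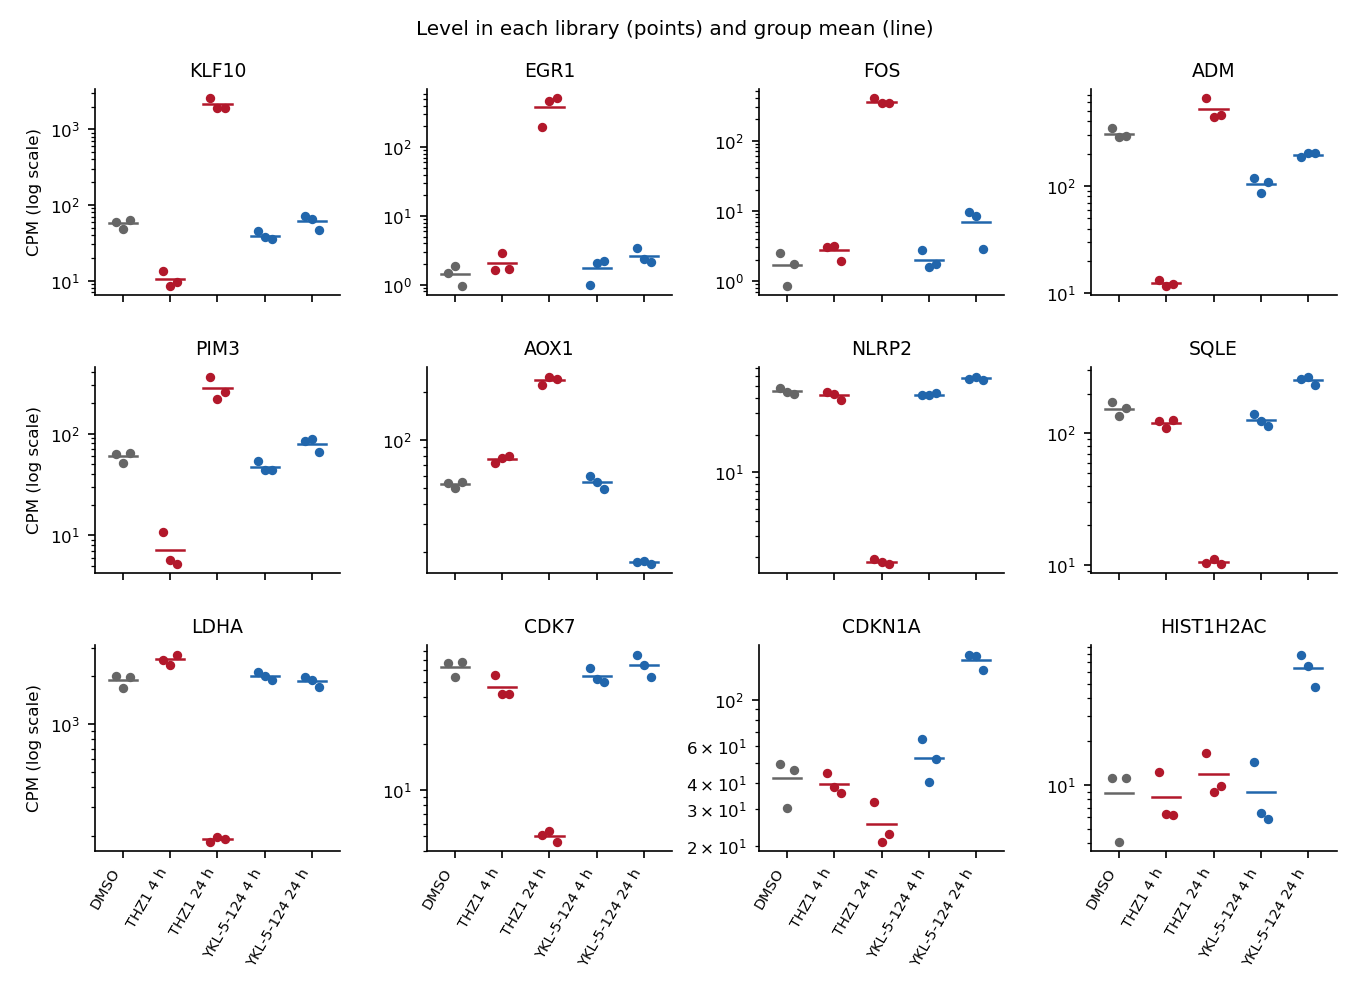
CPM on a log axis in each of the 15 libraries (points, 3 per group) with the group mean (line), for 12 genes with a called interaction. The THZ1 24 h libraries of EGR1 sit between 194 and 510 CPM and every other library at or under 3.39, while in NLRP2 the THZ1 24 h libraries sit between 1.77 and 1.93 CPM and every other library at or above 38.2.

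Genes that read out growth factor signalling included DUSP6. DUSP6, the phosphatase that feeds back on ERK, was at 4.84, 5.52 and 5.35 CPM in THZ1 4 h, 75.8, 71.0 and 76.6 in THZ1 24 h, 45.6, 52.9 and 44.9 in YKL-5-124 4 h and 85.1, 84.6 and 77.7 in YKL-5-124 24 h. The interaction of DUSP6 was 3.04 ± 0.17 (adjusted p = 2.11e-09 by edgeR), and at 24 h the THZ1 libraries were just below those of YKL-5-124, with a difference of -0.15 (95% interval -0.38 to 0.09). Of 22 genes that read out ERK activity, 10 were called higher and 5 lower (45.5% and 22.7%). Their median of 0.98 turned to -0.06 under library totals (all genes: -1.18 there). VGF, a growth factor-induced secreted peptide precursor, was at 6.15 ± 0.64 with 35.4 to 60.8 CPM in THZ1 24 h and at most 1.82 elsewhere. ETV5, an ERK-dependent ETS factor, was at -1.55 ± 0.16, and DUSP4 at -1.40 ± 0.50 (adjusted p = 0.0265 by edgeR), a call lost with RLE (-1.17) and upper-quartile factors (-1.09) and without any of 4 libraries (-0.91 without THZ1 24 h replicate 2).

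The shares called in the NF-kB and YAP target lists lay near those of all genes (26.6% higher and 31.0% lower). NFKBIA, the inhibitor that NF-kB induces against itself, was at 8.26, 5.30 and 5.21 CPM in THZ1 4 h, 234, 166 and 160 in THZ1 24 h, 48.7, 33.6 and 34.5 in YKL-5-124 4 h and 113, 109 and 77.6 in YKL-5-124 24 h. NFKBIA rose under both compounds, and its interaction was 3.53 ± 0.31 (adjusted p = 1.77e-07 by edgeR). NFKB2 and RELB, subunits of the non-canonical arm, were at -1.63 ± 0.16 and -1.22 ± 0.28. Of 21 genes in that list 6 were called higher and 5 lower (28.6% and 23.8%), and the median was -0.20, which crossed 0 with RLE (0.03), DESeq2 (0.03) and upper-quartile factors (0.11). Of 22 YAP and TEAD targets 8 were called higher and 8 lower (36.4% each). Among them CYR61, a matricellular protein, went from 33 ± 3.77 to 825 ± 36.1 CPM under THZ1 and from 298 ± 38.9 to 636 ± 116 under YKL-5-124 (SD, n = 3 each; interaction 3.55 ± 0.20). GADD45B, a stress-response scaffold, was at 4.26 ± 0.26, whereas TGFB2, a growth factor, was at -3.26 ± 0.65 (-2.65 without YKL-5-124 24 h replicate 3) and AMOTL1, a YAP partner at junctions, at -2.06 ± 0.40.

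The genes whose compound order turned from lower to higher under THZ1 included ADM, PIM3 and SERTAD1. ADM, the vasodilator peptide adrenomedullin, was at 13.2, 11.8 and 12.3 CPM in THZ1 4 h, 652, 442 and 461 in THZ1 24 h, 118, 86.8 and 109 in YKL-5-124 4 h and 186, 200 and 202 in YKL-5-124 24 h. The compounds did not overlap at either time, THZ1 being below at 4 h and above at 24 h, and ADM had an interaction of 4.48 ± 0.22 (adjusted p = 1.37e-09 by edgeR). PIM3, a serine/threonine kinase that favours survival, was at 4.51 ± 0.35, from 7.19 ± 3.03 to 279 ± 75.8 CPM under THZ1 and from 46.9 ± 5.54 to 79.5 ± 11.7 under YKL-5-124 (SD, n = 3). SERTAD1, a co-regulator of E2F, was at 4.71 ± 0.49. The naming floor of 10 CPM is a mean over the 12 treated libraries. Above it, the 2 highest values among called protein-coding genes with no overlap belonged to genes near 0 in the other groups. They passed that floor through THZ1 24 h alone, as did EGR1, FOS, VGF and MATR3, so this ranking is not independent of the contrast. PLCB1, a phospholipase C, was at 432, 247 and 204 CPM in THZ1 24 h and at most 1.85 CPM elsewhere, and FCRLB, an Fc receptor-like protein, at 184, 101 and 109 CPM and at most 0.945 elsewhere. Their interactions were 8.72 ± 0.80 and 8.05 ± 0.59. Without THZ1 4 h replicate 1 they became 10.17 and 8.90. MATR3 (6.10 ± 0.49), an RNA-binding nuclear matrix protein, is uncertain, since the annotation holds a second gene of that symbol on the same strand and interval.

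At the other end stood genes that, apart from AHNAK2, fell under THZ1 while YKL-5-124 left them level or raised them. The change of AHNAK2 under THZ1 was not called (adjusted p = 0.0532 by edgeR). NLRP2, a member of the NOD-like receptor family, lies on chromosome 19 from 54953130 to 55001142 (GRCh38, plus strand). NLRP2 was at 44.1, 43.0 and 38.2 CPM in THZ1 4 h, 1.93, 1.84 and 1.77 in THZ1 24 h, 41.7, 41.7 and 43.6 in YKL-5-124 4 h and 57.1, 59.4 and 55.6 in YKL-5-124 24 h. The compounds overlapped at 4 h (difference -0.02, 95% interval -0.22 to 0.18) and were far apart at 24 h. Among called protein-coding genes at 10 CPM or more with no overlap, NLRP2 had the lowest interaction, -4.93 ± 0.16 (adjusted p = 4.17e-11 by edgeR). VANGL1, a planar cell polarity protein, was at -4.73 ± 0.25; NASP, a histone chaperone, at -4.35 ± 0.20; NINJ1, a membrane protein of cell rupture, at -4.32 ± 0.23; NUP85, a nuclear pore subunit, at -4.13 ± 0.25; and TMEM246 at -4.12 ± 0.32. CNOT6L, a deadenylase of the CCR4-NOT complex that shortens poly(A) tails, was at -4.03 ± 0.24, and EIF4A3, the helicase of the exon junction complex, at -3.95 ± 0.16. AHNAK2 was fitted at -4.19 ± 1.51 (adjusted p = 0.0271 by edgeR), but its libraries spread widely within groups, from 17.7 to 94.6 CPM in YKL-5-124 24 h, and the call was lost without any of 4 libraries (THZ1 4 h replicate 2, THZ1 24 h replicates 1 and 2, and YKL-5-124 24 h replicate 3, without which it was -2.99).

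Among the genes of the transcription machinery was the shared target of the compounds. CDK7, lies on chromosome 5 from 69234795 to 69277430 (GRCh38, plus strand). CDK7 mRNA was at 56.0, 42 and 41.9 CPM in THZ1 4 h, 5.07, 5.41 and 4.59 in THZ1 24 h, 62.3, 52.1 and 49.9 in YKL-5-124 4 h and 75.4, 65.2 and 54.5 in YKL-5-124 24 h. The compounds overlapped at 4 h, with a difference of -0.23 (95% interval -0.55 to 0.09), and every THZ1 24 h library was below all others. The interaction of CDK7 was -3.46 ± 0.23 (adjusted p = 1.36e-08 by edgeR). CDK12 followed, with 39.3, 65.3 and 49.2 CPM in THZ1 4 h, 8.70, 9.39 and 7.93 in THZ1 24 h, 59.7, 68.1 and 64.6 in YKL-5-124 4 h and 66.6, 69.0 and 87.8 in YKL-5-124 24 h, and its interaction was -2.78 ± 0.27. CDK13 was at -1.06 ± 0.44 (adjusted p = 0.0494 by edgeR); the call was lost without any of 10 of the 15 libraries, DMSO replicate 3 and 9 treated ones (-0.82 without YKL-5-124 4 h replicate 1), and with RLE (-0.84), upper-quartile (-0.75) and DESeq2 scaling (-0.84).

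Of 29 Pol II kinases and general transcription factors, 4 were called higher and 17 lower (13.8% and 58.6%, against 26.6% and 31.0% of all genes), with a median of -0.89. GTF2H3, a TFIIH core subunit, was among the 4, at 1.91 ± 0.15, but it overlaps another tested gene on the opposite strand. GTF2H5, the smallest TFIIH subunit, was at 0.84 ± 0.32 (adjusted p = 0.0358 by edgeR), which turned to -0.19 under library totals and was lost without any of 5 libraries (down to 0.67). Of the 12 Pol II subunits, 7 were called higher and 2 lower (58.3% and 16.7%), and the median of 0.78 became -0.25 under library totals (all genes: -1.18 there). POLR2E and POLR2I, small subunits, were at 2.16 ± 0.14 and 2.08 ± 0.42, whereas POLR2B, the second-largest subunit, and POLR2D were at -2.20 ± 0.15 and -2.13 ± 0.19. Of 26 factors of elongation, pausing and transcript end formation, 5 were called higher and 14 lower (median -0.79). The Paf1 complex subunits RTF1 and CTR9, which travel with elongating Pol II, were at -3.51 ± 0.30 and -3.06 ± 0.20. PCF11, a cleavage and termination factor, moved the other way: 13.1, 13.7 and 14.3 CPM in THZ1 4 h, 129, 145 and 139 in THZ1 24 h, 37.8, 51.8 and 42.8 in YKL-5-124 4 h and 34.4, 36.1 and 44.6 in YKL-5-124 24 h (interaction 3.53 ± 0.21). PCF11 overlaps a tested gene on the opposite strand. NELFCD, a subunit of the pausing factor NELF, was at 1.5 ± 0.12.

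**Figure D3:**
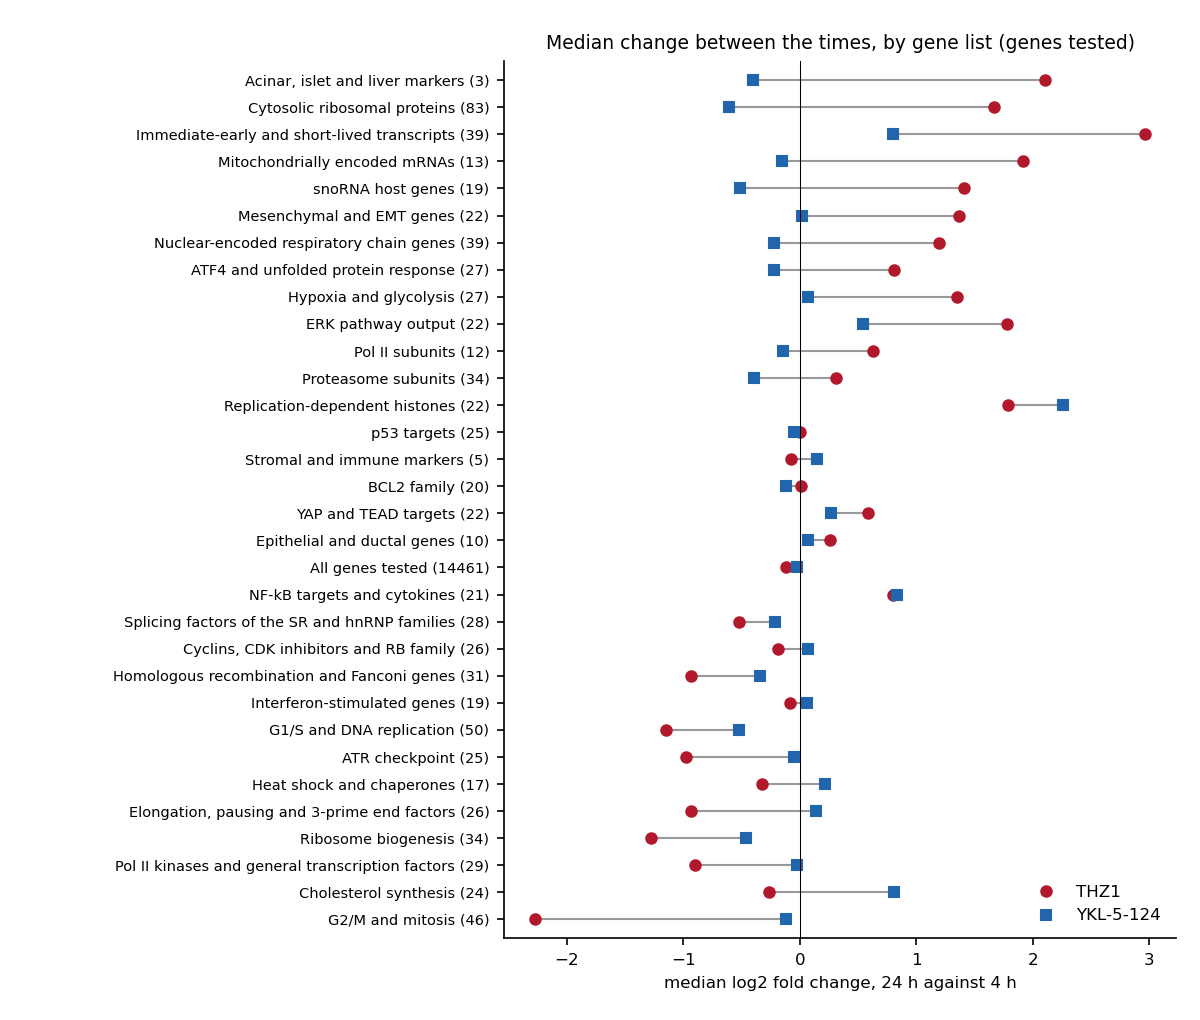
Median log2 fold change between 4 h and 24 h for each gene list under THZ1 (red circles) and YKL-5-124 (blue squares), ordered by median interaction, with the number of genes tested in brackets. The gap is wide at both ends, as in ribosomal proteins (1.67 and -0.60) and mitotic genes (-2.28 and -0.12), and both medians of the histone genes lie above 0 (1.79 and 2.26).

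Mitotic genes had the lowest median interaction of the 31 lists. Of 46 G2/M and mitosis genes, 3 were called higher and 38 lower, with a median of -2.16, and under library totals 0 were higher and 41 lower. Of all 14461 genes tested, 1558 were higher and 7917 lower under library totals. Under THZ1 38 of the mitotic genes fell and 5 rose between the times (all genes: 35.7% and 31.4%). Under YKL-5-124 5 fell and 1 rose (all genes: 11.9% and 9.22%), so the share that fell was near that of all genes. TTK, the spindle checkpoint kinase MPS1, was at 66.0, 54.4 and 50.4 CPM in THZ1 4 h, 4.23, 4.90 and 3.97 in THZ1 24 h, 103, 78.4 and 75.3 in YKL-5-124 4 h and 99.7, 95.1 and 89.7 in YKL-5-124 24 h. The THZ1 libraries of TTK were below those of YKL-5-124 at both times, by more at 24 h, and its interaction was -3.85 ± 0.22 (adjusted p = 2.84e-09 by edgeR). CENPF, a kinetochore protein, was at -3.97 ± 0.81, with libraries of THZ1 4 h as far apart as 48.9 and 192 CPM, and at -3.29 without YKL-5-124 24 h replicate 3. BIRC5 (survivin, of the chromosomal passenger complex) and CENPK (of the inner kinetochore) were at 1.11 ± 0.17 and 1.17 ± 0.27, calls that were lost under library totals (0.08 and 0.14).

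Promoters of mitotic genes often carry the cell cycle homology region (CHR), the site of the DREAM and MMB complexes, with letters TTTGAA, and CCAAT boxes. The search covered both strands in the 250 bases upstream of the start. TTTGAA was found in 19 of 39 mitotic promoters (48.7%), against 8.19% of the protein-coding genes tested and 13.3% of all promoters in the table, and CCAAT in 71.8%, against 35.1% and 32.0%. The median interaction was -2.01 in the 19 genes with TTTGAA and -2.38 in the 20 without. The promoters of CDCA8, CCNB2 and PLK1 are shown because all 3 hold the letters close before the start, 23, 29 and 29 bases upstream on the printed strand, while the interaction ranged from -3.65 in CDCA8, a chromosomal passenger subunit, through -2.71 in CCNB2, a mitotic cyclin, to -0.77 in PLK1, a mitotic kinase. These are the 150 bases before the start, from RefSeq (GRCh38.p14, plus strand, at chr1:37692366-37692515, chr15:59104996-59105145 and chr16:23678739-23678888), with TTTGAA in capitals. A match is only a match of letters. The 3 genes were picked for display after their values were seen.
CDCA8: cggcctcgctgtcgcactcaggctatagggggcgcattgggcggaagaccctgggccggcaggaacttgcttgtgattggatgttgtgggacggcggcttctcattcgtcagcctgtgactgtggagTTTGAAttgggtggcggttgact
CCNB2: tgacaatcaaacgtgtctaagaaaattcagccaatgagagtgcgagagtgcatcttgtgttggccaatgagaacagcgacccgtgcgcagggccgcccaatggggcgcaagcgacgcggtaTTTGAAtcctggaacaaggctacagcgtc
PLK1: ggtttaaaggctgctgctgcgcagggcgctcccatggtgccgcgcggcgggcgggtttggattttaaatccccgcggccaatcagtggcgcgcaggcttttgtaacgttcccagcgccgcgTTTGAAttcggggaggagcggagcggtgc

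G1/S and DNA replication genes were called in both directions. Of 50, 16 were called higher and 25 lower (32% and 50%, against 26.6% and 31.0% of all genes), with a median of -0.66. The time test called 31 lower under THZ1 and 26 lower under YKL-5-124 (all genes: 35.7% and 11.9%). PCNA, the sliding clamp of DNA polymerase, was at 314, 268 and 315 CPM in THZ1 4 h, 12.6, 10.0 and 10.9 in THZ1 24 h, 264, 223 and 229 in YKL-5-124 4 h and 134, 129 and 107 in YKL-5-124 24 h. PCNA thus fell under both compounds, and more under THZ1 (interaction -3.80 ± 0.20, adjusted p = 1.81e-09 by edgeR). CDC45, part of the replicative helicase, went the opposite way, with 66.6, 51.5 and 56.2 CPM in THZ1 4 h, 119, 96.3 and 85.5 in THZ1 24 h, 55.4, 46.9 and 49.9 in YKL-5-124 4 h and 16.4, 15.2 and 15.3 in YKL-5-124 24 h. With TMM scaling CDC45 rose under THZ1 and fell under YKL-5-124, for an interaction of 2.49 ± 0.22 (adjusted p = 1.55e-07 by edgeR). That rise rests on the scaling, whose factors were 0.970 to 1.02 in THZ1 4 h and 0.532 to 0.559 in THZ1 24 h. Under library totals the interaction of CDC45 was 1.45, and its change under THZ1 alone is not given. CDC6, which loads that helicase, was at -3.76 ± 0.19. TYMS, which makes thymidylate, was at 2.41 ± 0.19, with a tested gene overlapping it on the opposite strand.

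Of 26 genes for cyclins, their kinases' inhibitors and RB relatives, 6 were called higher and 11 lower (23.1% and 42.3%, against 26.6% and 31.0% of all genes), and 7 and 8 with RLE, upper-quartile or DESeq2 factors. CDKN1A, which encodes the CDK inhibitor p21, rose under YKL-5-124 and fell under THZ1. It was at 44.5, 38.2 and 35.8 CPM in THZ1 4 h, 32.6, 20.9 and 23 in THZ1 24 h, 65.3, 40.4 and 52.2 in YKL-5-124 4 h and 164, 162 and 138 in YKL-5-124 24 h. The compounds overlapped at 4 h (difference -0.41, 95% interval -0.85 to 0.03) and not at 24 h, and the interaction of CDKN1A was -2.19 ± 0.30 (adjusted p = 1.48e-05 by edgeR). CDKN1B, which encodes p27, was instead low at 4 h of THZ1 and level at 24 h: 8.64, 7.0 and 6.38 CPM in THZ1 4 h, 71.1, 71.1 and 73.3 in THZ1 24 h, 44.0, 39.6 and 34.4 in YKL-5-124 4 h and 75.3, 70.5 and 55.1 in YKL-5-124 24 h. Its interaction was 2.52 ± 0.21, and at 24 h the compounds differed by 0.10 (95% interval -0.20 to 0.41). CDKN2B, an inhibitor of G1 kinases, was at 2.29 ± 0.33, and both overlap a tested gene.

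The p53 target list (25 genes, 9 called higher and 9 lower, 36.0% each, against 26.6% and 31.0% of all genes) held CDKN1A and TP53INP1, an autophagy and p53 cofactor, on the lower side (-3.19 ± 0.34 for TP53INP1, which overlaps a gene on the opposite strand). GDF15, a secreted stress cytokine, was at 3.87 ± 0.57 and SPATA18, a mitochondrial quality gene, at 2.92 ± 0.49. Of 20 BCL2 family genes 4 were called higher and 6 lower (20% and 30%), shares near those of all genes. BAK1, a pore-forming death effector, was at -3.30 ± 0.25 and BCL2L1, which encodes BCL-XL, at -2.65 ± 0.16. PMAIP1 (NOXA) and BID, both pro-death BH3 proteins, were at 1.55 ± 0.37 and 1.53 ± 0.28, calls lost under library totals (0.52 and 0.50).

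Replication-dependent histone genes rose under both compounds: 18 of 22 under THZ1 and 14 under YKL-5-124, with 0 falling under either. Of all genes tested 31.4% and 9.22% rose. Their interaction was called higher in 6 and lower in 5 (27.3% and 22.7%), near the shares of all genes (26.6% and 31.0%). Its median of 0.62 turned to -0.41 under library totals. HIST1H2AC showed the larger rise under YKL-5-124, at 12.3, 6.31 and 6.24 CPM in THZ1 4 h, 16.8, 8.98 and 9.91 in THZ1 24 h, 14.6, 6.42 and 5.90 in YKL-5-124 4 h and 79.1, 66.5 and 47.1 in YKL-5-124 24 h. Only YKL-5-124 24 h stood apart, and its interaction was -2.33 ± 0.60 (adjusted p = 0.00385 by edgeR). HIST1H1C, a linker histone, was at -1.63 ± 0.34. HIST1H4C and HIST1H2AE were at 2.77 ± 0.92 and 2.22 ± 0.80, with at most 7.96 CPM in any library. Both calls were lost under library totals (1.74 and 1.2) and without YKL-5-124 4 h replicate 1, and HIST1H4C was at 3.76 without YKL-5-124 24 h replicate 2. Histone genes are near-identical copies and mostly lack poly(A) tails, so their counts are uncertain.

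Of 31 homologous recombination and Fanconi genes 4 were called higher and 14 lower (12.9% and 45.2%, against 26.6% and 31.0% of all genes), with a median of -0.50. With RLE factors these counts were 7 and 10, and with upper-quartile factors 8 and 9. Of 25 ATR checkpoint genes 4 were called higher and 12 lower (16.0% and 48.0%), with a median of -0.73, and with upper-quartile factors 5 and 10. FANCM, a DNA translocase, was at -2.87 ± 0.24; UBE2T, the ubiquitin-conjugating enzyme of the Fanconi pathway, at -2.44 ± 0.28; TP53BP1, a double-strand break factor, at -3.12 ± 0.23; and SMARCAL1, a fork remodeller, at -2.52 ± 0.24. TIMELESS, of the fork protection complex, was at 135, 170 and 155 CPM in THZ1 4 h, 380, 397 and 413 in THZ1 24 h, 99.9, 122 and 116 in YKL-5-124 4 h and 53.6, 58.0 and 61.9 in YKL-5-124 24 h. TIMELESS rose under THZ1 and fell under YKL-5-124, with no overlap between the compounds at either time (interaction 2.33 ± 0.15). ETAA1, an activator of ATR, was at 1.71 ± 0.29 (0.67 and not called under library totals), and it stayed lower under THZ1 at both times. FANCD2 was at 0.70 ± 0.29 (adjusted p = 0.0471 by edgeR), which turned to -0.34 under library totals and was lost without any of 9 libraries, DMSO replicates 1 and 3 among them (down to 0.52).

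Ribosomal protein genes had the largest share of higher calls among the lists of over 13 genes. Of 83 cytosolic ribosomal protein genes, 79 were called higher and 3 lower, with a median of 2.29 (1.26 under library totals). They rose under THZ1 in 78 cases and fell under YKL-5-124 in 52 (all genes: 31.4% and 11.9%). RPLP2, an acidic stalk protein, was at 1681, 1726 and 1878 CPM in THZ1 4 h, 7308, 9171 and 7811 in THZ1 24 h, 1060, 1250 and 1429 in YKL-5-124 4 h and 723, 728 and 750 in YKL-5-124 24 h. Each THZ1 group was above its YKL-5-124 counterpart, and the interaction of RPLP2 was 2.97 ± 0.16. RPL39L and RPL36AL, retrocopy-derived relatives of RPL39 and RPL36A, were lower, at -1.77 ± 0.51 and -0.98 ± 0.13. Ribosomal protein genes have many processed copies, and how the authors' counting treated reads shared with those is unknown here. The ribosome biogenesis factors did not follow them: of 34, 7 were called higher and 19 lower (median -0.82). BYSL and GNL3, needed for small-subunit and large-subunit assembly, were at -3.37 ± 0.30 and -3.29 ± 0.21, while NPM1, the abundant nucleolar chaperone, was at 1.41 ± 0.23, a call lost under library totals (0.38). NOP2, an rRNA methyltransferase, was fitted at 7.54 ± 0.81 (8.42 without YKL-5-124 24 h replicate 3), from at most 0.516 CPM outside THZ1 24 h and 14.4 to 22.9 CPM there, and the annotation holds another gene on the same strand over it. Of 19 snoRNA host genes, which carry snoRNAs in their introns, 16 were called higher and 1 lower (median 1.72). ZFAS1 and SNHG6 were at 2.78 ± 0.33 and 2.76 ± 0.29, and SNHG16 at -1.17 ± 0.23.

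All 13 mitochondrially encoded mRNAs had a higher interaction, with a median of 2.08. They are made by the mitochondrial RNA polymerase and not by Pol II. MT-CO1, a core subunit of cytochrome oxidase, was at 2104, 3768 and 2788 CPM in THZ1 4 h, 15293, 15098 and 15997 in THZ1 24 h, 1566, 1883 and 1784 in YKL-5-124 4 h and 1561, 1729 and 1778 in YKL-5-124 24 h (interaction 2.47 ± 0.23). Of 39 nuclear-encoded respiratory chain genes, 33 were called higher and 3 lower (median 1.49). COX8A, a small subunit of the same enzyme, was at 2.51 ± 0.31, and SDHA, the flavoprotein of complex II, at -2.29 ± 0.20. Proteasome subunits were divided, with 18 of 34 called higher and 9 lower, and a median of 0.74 that turned to -0.29 under library totals. PSMD2 and PSMC4 were at 2.01 ± 0.11 and 1.65 ± 0.20, and PSMC6 and PSMD6 at -2.17 ± 0.28 and -1.99 ± 0.18, all 4 being subunits of the regulatory particle. In bulk RNA, fewer cells of a type and less RNA per cell cannot be told apart.

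Cholesterol synthesis genes moved 1 way under YKL-5-124, while under THZ1 their shares rising and falling were near those of all genes. Of 24, 15 rose between 4 h and 24 h under YKL-5-124 and 0 fell (all genes: 9.22% and 11.9%). Under THZ1 7 rose and 9 fell (all genes: 31.4% and 35.7%). The interaction was called higher in 4 and lower in 15 (median -1.16). SQLE, squalene epoxidase, was at 124, 110 and 125 CPM in THZ1 4 h, 10.4, 11.2 and 10.2 in THZ1 24 h, 141, 124 and 114 in YKL-5-124 4 h and 258, 269 and 234 in YKL-5-124 24 h. The compounds overlapped at 4 h, with a difference of -0.08 (95% interval -0.31 to 0.16), and moved apart in opposite directions by 24 h. SQLE had an interaction of -4.50 ± 0.17 (adjusted p = 2.26e-10 by edgeR). MVK, mevalonate kinase, was at -3.82 ± 0.31, with a tested gene on the opposite strand. PMVK, the next enzyme, and SREBF2, the master regulator of the pathway, were at 1.06 ± 0.16 and 1.18 ± 0.24, calls lost under library totals (0.03 and 0.14).

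**Figure D4:**
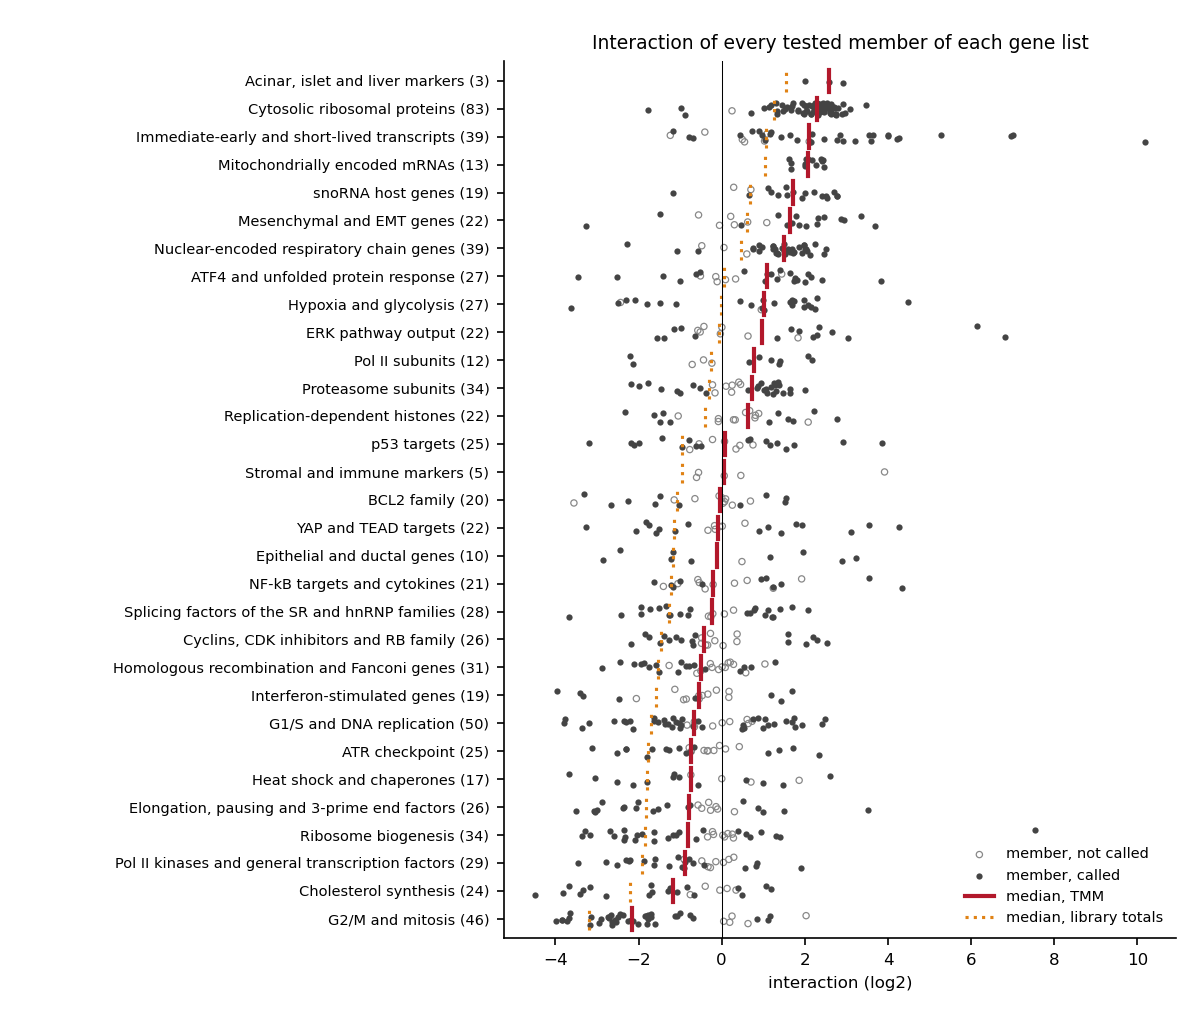
Interaction (log2) of every tested member of the 31 gene lists, filled where called by edgeR and open where not, with the list median under TMM scaling (solid red) and under library totals (dotted orange). All medians shift left together under library totals, and those of ribosomal proteins (2.29 and 1.26) and mitotic genes (-2.16 and -3.20) keep their side of 0.

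Stress and metabolic lists were mixed. Of 27 genes of the ATF4 and unfolded protein response, 15 were called higher and 6 lower (median 1.09, and 0.06 under library totals). CHAC1, a glutathione-degrading ATF4 target, was at 3.83 ± 0.75 with at most 8.85 CPM in any treated library (5.80 without THZ1 4 h replicate 1), and CEBPB, a bZIP factor, at 2.41 ± 0.28. ATF5 and VLDLR, an ATF4-related factor and a lipoprotein receptor, were at -2.53 ± 0.23 and -3.46 ± 0.37. Of 17 heat shock and chaperone genes 4 were called higher and 9 lower (23.5% and 52.9%). HSP90AA1, the inducible HSP90, was at 8209, 7890 and 8276 CPM in THZ1 4 h, 19266, 19032 and 19260 in THZ1 24 h, 5937, 5249 and 4955 in YKL-5-124 4 h and 4697, 4398 and 4574 in YKL-5-124 24 h (interaction 1.48 ± 0.13). HSPA8, the constitutive HSP70, and DNAJA1, a co-chaperone of HSP70, were lower, at -3.67 ± 0.27 and -3.04 ± 0.18.

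Of 27 hypoxia and glycolysis genes 18 were called higher and 7 lower, with a median of 1.02 that came to -0.02 under library totals (all genes: -1.18 there). GAPDH, often used as a reference gene, rose from 2071 to 2591 CPM over the THZ1 4 h libraries to between 8257 and 10322 in THZ1 24 h, while YKL-5-124 held it between 1168 and 1719. The interaction of GAPDH was 2.29 ± 0.19. LDHA, which turns pyruvate into lactate, moved oppositely and also turned the order of the compounds. LDHA was at 2525, 2349 and 2706 CPM in THZ1 4 h, 182, 197 and 191 in THZ1 24 h, 2098, 2004 and 1891 in YKL-5-124 4 h and 1952, 1868 and 1705 in YKL-5-124 24 h. THZ1 was above YKL-5-124 at 4 h and below it at 24 h without overlap, and the interaction was -3.62 ± 0.14 (adjusted p = 2.65e-10 by edgeR). LMNB1, the nuclear lamin B1, and DLGAP5, a spindle protein, turned the same way, at -3.07 ± 0.12 and -2.93 ± 0.14. PFKFB4, which sets the level of a glycolytic activator, was at -2.49 ± 0.44, having risen by 1.77 under YKL-5-124 with no call under THZ1 (-0.72).

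AOX1, C6orf48 and GSTM1 had the highest interactions among genes that rose under THZ1 and fell under YKL-5-124, had 10 CPM or more and overlapped no tested gene. AOX1, aldehyde oxidase, lies on chromosome 2 from 200585868 to 200677064 (GRCh38, plus strand). AOX1 was at 71.7, 77.6 and 79.9 CPM in THZ1 4 h, 222, 250 and 243 in THZ1 24 h, 59.9, 54.6 and 49.8 in YKL-5-124 4 h and 17.3, 17.5 and 16.9 in YKL-5-124 24 h. No treated group overlapped another, and the DMSO level, 53.2 ± 2.53 CPM (SD, n = 3), was that of YKL-5-124 4 h. AOX1 rose by 1.64 under THZ1 and fell by 1.67 under YKL-5-124, an interaction of 3.31 ± 0.14 (adjusted p = 2.98e-10 by edgeR). C6orf48, a snoRNA host, was at 3.57 ± 0.31 and GSTM1, a glutathione transferase with close paralogs that may share its reads, at 3.02 ± 0.21.

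Of 22 mesenchymal and EMT genes 14 were called higher and 2 lower, with a median of 1.63 (0.60 under library totals, where 4 were higher and 6 lower). The members at the top were scarce: SNAI1, an EMT repressor of CDH1, was at 3.03 to 3.86 CPM in THZ1 24 h and at most 1.64 elsewhere (2.46 ± 0.63, and 3.25 without THZ1 4 h replicate 2), and COL1A1, collagen I, spread from 1.21 to 7.25 CPM there (2.94 ± 1.00, adjusted p = 0.0207 by edgeR). The call of COL1A1 was lost without THZ1 24 h replicate 2 or YKL-5-124 4 h replicate 3, its value was 4.04 without YKL-5-124 24 h replicate 1, and both calls were lost under library totals (1.43 for SNAI1 and 1.93 for COL1A1). ITGA5, the fibronectin receptor subunit, was at -1.49 ± 0.27. Of 10 epithelial and ductal genes 4 were called higher and 5 lower (40% and 50%, against 26.6% and 31.0% of all genes). CDH1, E-cadherin, was at 3.47 to 6.76 CPM in THZ1 24 h and at most 0.75 elsewhere (3.23 ± 0.57), while TJP1 and CLDN1, tight junction proteins, were at -2.85 ± 0.22 and -2.44 ± 0.19. Among markers of cells that a pure line should not hold, the acinar, islet and liver list moved with these low-level genes. The stromal and immune list overlapped between the compounds at 24 h. The summed level of 19 acinar, islet and liver genes was 19.4 to 26.0 CPM in THZ1 24 h, with 15 of the 19 at 0, and 2.96 to 5.39 CPM in the other groups. Only CHGB (2.93 ± 0.46), SYP (2.58 ± 0.48) and SERPINA1 of that list were tested. The 22 stromal and immune genes summed to 6.88 to 10.8 CPM in THZ1 24 h and 5.62 to 11.6 in YKL-5-124 24 h, and 0 of the 5 tested were called. Their part in the results was not tested.

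Of 28 splicing factors of the SR and hnRNP families, 11 were called higher and 12 lower (39.3% and 42.9%, against 26.6% and 31.0% of all genes). SRSF3 and SRSF4, both SR proteins, were at -3.68 ± 0.21 and -2.43 ± 0.18, and HNRNPC, which binds U-rich introns, at 1.69 ± 0.31. HNRNPA1 was level under THZ1 (0.09) and fell by 1.31 under YKL-5-124, giving 1.40 ± 0.15, a call lost under library totals (0.36). Of 19 interferon-stimulated genes 3 were called higher and 5 lower (15.8% and 26.3%). DDX58 (RIG-I) and IFIH1 (MDA5), sensors of double-stranded RNA, were at -3.40 ± 0.29 and -3.33 ± 0.30, whereas IFI6 was at 1.69 ± 0.18 and IRF1 at 1.42 ± 0.35, the last lost under library totals (0.38). IRF1 rose under both compounds and stayed lower under THZ1 than under YKL-5-124, by -2.97 at 4 h and -1.55 at 24 h.

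Gene structure, which the contrast did not use, went along with the interaction. Among 12212 protein-coding genes the median interaction was 0.69 for the 978 spanning under 5 kb, of which 42.2% were called higher and 16.8% lower. It was -0.62 for the 1816 spanning 100 to 250 kb, with 17.1% higher and 43.9% lower, and -0.41 for the 591 spanning 250 kb or more. The median over exonic length went from 1.43 in 126 genes under 1 kb to -0.62 in 2621 genes of 8 kb or more. Across these genes Spearman's correlation with span was -0.199 for the interaction, -0.227 for the change over time under THZ1 and -0.037 under YKL-5-124, given as descriptions. Abundance went along with it too. Of the 164 genes in the most abundant bin by mean CPM over the 12 treated libraries, 91.5% were called higher, with a median of 1.97, and of the 5757 between 10 and 100 CPM 48.5% were called lower (median -0.57). That mean includes the THZ1 24 h libraries, so it is not independent of the contrast. Many short genes, such as those of ribosomal proteins, are also abundant, and the parts of length and abundance were not told apart.

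**Figure D5:**
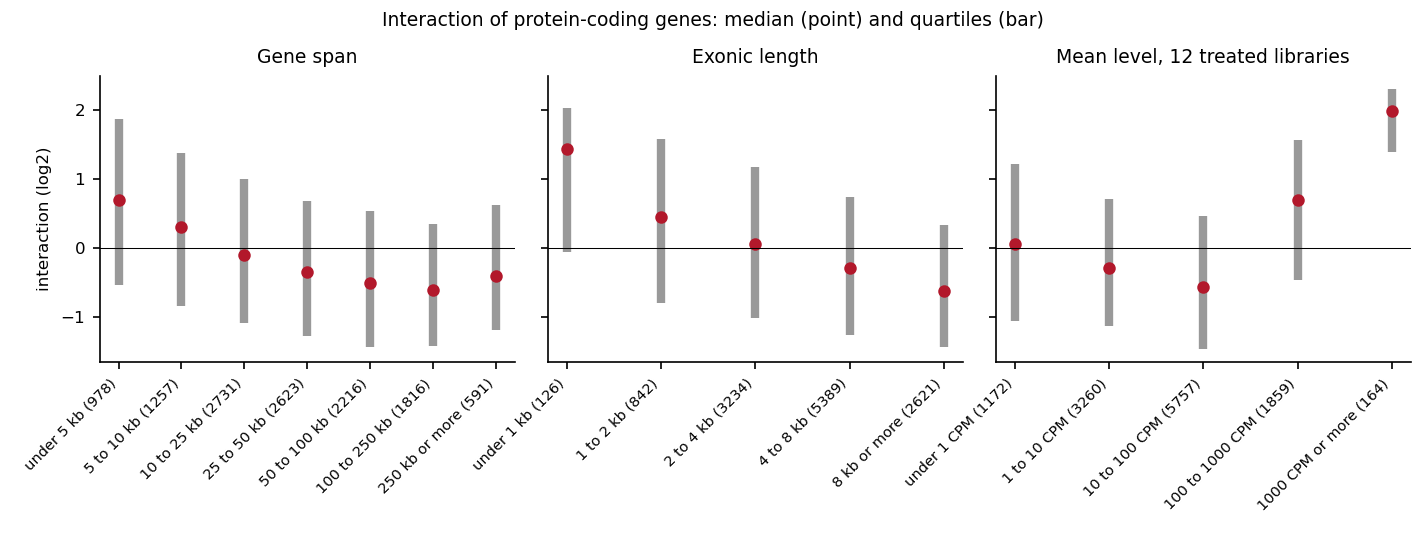
Median interaction (points) and quartiles (bars) of 12212 protein-coding genes by gene span, exonic length and mean level, with the number of genes per bin in brackets. The median falls from 0.69 under 5 kb to -0.62 at 100 to 250 kb, and it is 1.97 in the most abundant bin.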

How the data were processed

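RNA of PATU-8988T cells had been sequenced as 15 libraries, 3 in each of 5 groups taken from the labels. The authors deposited 1 table of raw read counts per Ensembl gene, not normalized. The tools are featureCounts 1.5.0-p3, STAR 2.6.1d and DESeq2 1.24.0, and the genome GRCh38, per the submitters' processing notes. Neither the strand setting nor the handling of reads with several matches is known here. Reads of overlapping genes therefore cannot be told apart, and 5132 tested genes overlap another tested one.

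The table lists 58676 genes, 30731 of them with a count. After filterByExpr, with 10 as the minimum count and 15 as the minimum total, 14461 were left, holding 99.9% of counts. The interaction was tested with edgeR 4.0.16 (R 4.3.3) by glmQLFit and glmQLFTest on all 15 libraries with 1 term per group, TMM scaling and Benjamini-Hochberg adjustment over all genes tested; the time change of each compound and the compound difference at each time came from the same fit. Values with ± are log2 interaction and its standard error unless SD is stated. The 95% intervals came from the same fit. On simulated counts for 13720 genes, 66 or 67 genes per size of interaction were changed, in THZ1 24 h only. There the step recovered 9.09% of interactions of 1.5-fold, 52.2% of 2-fold and 88.1% of 4-fold, and 3.85% of its calls were false. In the data 8331 of 14461 genes were called, which loosens the adjusted threshold, so neither rate carries over. Small interactions may still be missed. No pair of libraries within a group agreed within sampling noise, so none was merged. An exact permutation of 3 libraries against 3 cannot give a p under 0.1, so none was used.

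The members and the 31 gene lists were chosen with earlier results of these data known. Genes are named by a rule: the 10 highest and 10 lowest interactions among called protein-coding genes with at least 10 CPM and no overlap with a tested gene, up to 2 called list members per direction with at least 1 CPM, the 3 strongest in each of 4 patterns of opposite movement, and CDK7, CDK12 and CDK13. SERPINA1, CDCA8, CCNB2 and PLK1 were added after their values were seen. The CPM floors are means over the 12 treated libraries, so a gene can pass through THZ1 24 h alone. Spans came from the starts and ends that the authors deposited with the counts. Exon numbers came from GENCODE 29, in which 100% of the tested gene IDs were found and 93.7% had the same start and end. RefSeq promoters (GRCh38.p14) matched 81.9% of protein-coding genes tested. Alternatives were RLE and upper-quartile factors, library totals, DESeq2 1.42.0, no low-count filter, only the 12 treated libraries, a replicate block, a covariate for each library's slope on exonic length, and leaving out each library. The slope was computed from these same counts, as deviations from the group mean, so that setting is not an independent check and can shrink the spread used by the test.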

Additional observations from a re-analysis of the deposited data

Results flagged for a closer look

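Each result here is a change over time that differed between THZ1 and YKL-5-124 by edgeR's test of the difference itself. Over all genes tested, 3842 had a higher and 4489 a lower interaction. The 6 genes here are the 3 with the strongest interaction in each direction among protein-coding genes with 10 CPM or more and no overlap that rose under 1 compound and fell under the other, each by its own test. Other named genes, such as CDKN1A, CDC45 and TIMELESS, moved oppositely too with TMM scaling. NLRP2 (-4.93), SQLE (-4.50) and CNOT6L (-4.03) fell under THZ1 and rose under YKL-5-124. C6orf48 (3.57), AOX1 (3.31) and GSTM1 (3.02) rose under THZ1 and fell under YKL-5-124. No group has more than 3 libraries, so single libraries were not screened as outliers.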

How the results depend on the processing

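The counts of 3842 higher and 4489 lower interactions stayed within 1.5 times of these values under RLE factors, upper-quartile factors, DESeq2, no low-count filter, the 12 treated libraries alone and the length slope, and left the range only under library totals (1558 and 7917), where 224 genes called in both settings had the opposite sign. Calls with a higher interaction made up 46.1% of all calls with TMM, 54.3% with RLE factors, 57.1% with upper-quartile factors, 54.6% with DESeq2 and 16.4% with library totals, and the median of all genes shifted by 0.23, 0.31, 0.23 and -1.03. Leaving out 1 library gave 3614 to 3932 higher and 4111 to 4581 lower, and 442 to 690 genes that rose under THZ1 and fell under YKL-5-124, and 127 to 171 that were lower under THZ1 at 4 h and higher at 24 h. The pattern counts moved more. Genes that rose under THZ1 and fell under YKL-5-124 (622) numbered 177 with library totals and 1296 with the length slope. The opposite (406) numbered 1307 and 942, and 243 to 441 when 1 library was left out, the lowest without YKL-5-124 4 h replicate 3. Genes lower under THZ1 at 4 h and higher at 24 h (159) numbered 55 with library totals. Genes higher at 4 h and lower at 24 h (200) numbered 44 under that setting, 320 with DESeq2, 123 with no low-count filter, 605 with the length slope and 69 to 241 when 1 library was left out, the lowest without YKL-5-124 4 h replicate 3. For these the cause was not tested. Only GTF2H5 (-0.19) and FANCD2 (-0.34) of the 135 named genes changed sign, both under library totals.

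The labels tie replicate numbers to nothing shared, and not every same-numbered pair deviated together, so the numbers were not used for pairing. Of 18 correlations of same-numbered deviations 13 were over 0.1, with a median of 0.23 (lowest -0.31, highest 0.52), against a median of -0.16 for different numbers, and not every library correlated best with its own number. With a replicate block the counts were 4086 higher and 4831 lower, 797 and 542 genes with opposite movement, and 181 and 278 with a turned order. Low counts limit 237 members: 82 had 0 counts in a treated group and 155 had 1 to 3.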

Other observations

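Other classes of gene differed in their share of calls. Of 339 processed pseudogenes, which are intronless copies of mRNAs, 50.1% were called higher and 6.49% lower, with a median of 1.54; many are copies of ribosomal protein and other abundant mRNAs, and the handling of reads shared with the parent gene is unknown here. Of 564 lincRNAs 26.2% were called higher and 11.9% lower (median 0.54), and of 645 antisense RNAs 24.7% and 10.9% (median 0.59), against 26.2% and 34.8% of protein-coding genes (median -0.25), so the shares called higher were alike and those called lower smaller. The classes were not matched for level. Over all biotypes 8.11% of genes under 1 CPM were called lower, against 47.8% of those at 10 to 100 CPM. The medians were near 0 for 81 sense intronic (0.03), 33 sense overlapping (-0.07) and 56 transcribed processed pseudogenes (-0.02). Antisense counts cannot be told apart from those of the gene opposite without the strand setting.

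Position beside a neighbour went along with the interaction as well. The 626 protein-coding genes whose nearest upstream tested gene on the same strand ended within 2 kb had a median of 0.25, with 34.3% called higher and 22.4% lower. The 7050 with a gap of 50 kb or more had a median of -0.36, with 23.7% higher and 37.3% lower. Neighbours that were not tested did not count, so a gene with a wide gap may still have one close by. The 229 genes with a single exon had a median of 0.58. The cause was not tested.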
